A study of Homo sapiens with 12 samples.

Results

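Estradiol was compared with no added estradiol in MDA-MB-453 cells that expressed the K303R form of estrogen receptor alpha (ER). The assay was ATAC-seq, in which a transposase cuts accessible DNA and leaves sequencing adapters there. The K303R Dox+E2 culture received 2 ug/mL doxycycline (Dox), which switches the receptor transgene on, together with 1 nM estradiol (E2), and the K303R Dox culture received Dox without E2. Both were treated for 2 days in McCoy's medium with 10% serum, which the labels do not describe as steroid-depleted. Peaks of the 2 libraries on chromosomes 1 to 22 and X were cut to the same number of summits, 97243, by the deposited −log10 p, and intervals sharing at least 1 bp were joined into a region. This gave 99640 regions, against 166523 when all 12 libraries of the series are merged. The series holds 1 library for each of 3 receptor forms (K303R, WT and Y537S) and 4 treatments (Dox+E2, Dox, E2, untreated). The labels do not say whether a line is a clone or a pool. Every difference below is therefore 1 library against 1, with no replicate check and no p-value.

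ER alpha is a nuclear receptor that binds estradiol through its ligand-binding domain and then sits on DNA, mostly at distal enhancers, through its zinc-finger domain. Its best-known binding element is a palindrome of GGTCA and TGACC arms separated by any 3 bases. K303R is a change in the hinge between these domains, described in breast lesions and known for sensitivity to low estrogen. Y537S lies in the ligand-binding domain and is known for activity without ligand. MDA-MB-453 is an established breast cancer line of luminal apocrine type that is commonly used as ER-negative, so the receptor studied here is the transgene.

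Both libraries carried accessible chromatin at luminal genes. All 8 luminal markers (KRT8, KRT18, KRT19, EPCAM, CDH1, GATA3, FOXA1 and SPDEF) had a peak within 1 kb of a gene end with Dox+E2 and with Dox, with summit pileups of up to 22 and 21. A summit pileup is the number of fragments, or of reads, stacked at the top of a peak. No source used here says which were counted. Of 5 apocrine markers, 5 had a peak with Dox+E2 and 4 with Dox, PIP having a pileup of 4 with Dox+E2 and no peak with Dox. KRT5, KRT14, TP63 and EGFR of the basal markers, COL3A1, PDGFRB and DCN of the fibroblast markers, and PTPRC of the leukocyte markers had none. ACTA2 (pileups 9 and 8), COL1A1 (14 and 19), CD3E (6 and none) and SPI1 (6 and 8) did. The full lists held 102713 summits with Dox+E2 and 97243 with Dox. The background pileup, which stands for depth, was 0.192 and 0.210, the lowest listed pileup was 3 in both, and the median summit pileup was 7 in both. The lowest listed pileup of the other libraries was 3 to 5. A region without a listed peak is not shown to be closed, and, with lists cut to equal length, 1451 of the regions counted below as Dox only (6.27%) had a Dox+E2 peak among the summits that were cut, with a median pileup of 3. The peak names of both files carry the same tag; no source used here says what the tag records, and the labels name MiSeq or NextSeq550 as the sequencer without saying which library ran on which.

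The sequence windows at hand cover promoters, and 4 are shown because they span the cases seen there: a promoter that was higher with Dox+E2, a promoter of a luminal gene that was also higher, a promoter that was lower, and a promoter that holds the full ER element yet did not shift. They are RefSeq windows of GRCh38.p14, from 250 bases before to 50 after a start, read 5′ to 3′ on the gene's strand, and they were chosen after their values were seen. Capitals mark GGTCA or TGACC.
ZNF410, chr14:73886609-73886908, plus strand: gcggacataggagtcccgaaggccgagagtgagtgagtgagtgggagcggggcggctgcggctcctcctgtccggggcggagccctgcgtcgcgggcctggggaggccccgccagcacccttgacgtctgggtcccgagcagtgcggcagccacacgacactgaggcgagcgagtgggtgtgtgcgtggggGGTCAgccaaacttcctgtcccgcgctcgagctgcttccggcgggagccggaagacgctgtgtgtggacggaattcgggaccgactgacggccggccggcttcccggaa
GATA3, chr10:8054438-8054737, plus strand: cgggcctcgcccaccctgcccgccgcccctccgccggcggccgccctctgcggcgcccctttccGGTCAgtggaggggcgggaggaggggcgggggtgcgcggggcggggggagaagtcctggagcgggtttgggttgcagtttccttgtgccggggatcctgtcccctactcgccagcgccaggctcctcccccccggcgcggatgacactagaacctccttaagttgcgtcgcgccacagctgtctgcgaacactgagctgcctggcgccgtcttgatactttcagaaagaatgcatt
S100A16, chr1:153613088-153613387, minus strand: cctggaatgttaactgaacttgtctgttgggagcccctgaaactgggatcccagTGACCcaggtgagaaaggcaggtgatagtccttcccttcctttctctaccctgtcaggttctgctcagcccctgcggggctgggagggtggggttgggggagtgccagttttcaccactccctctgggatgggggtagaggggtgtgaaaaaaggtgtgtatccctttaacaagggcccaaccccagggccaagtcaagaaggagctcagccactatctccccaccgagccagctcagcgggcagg
ZNF669, chr1:247104307-247104606, minus strand: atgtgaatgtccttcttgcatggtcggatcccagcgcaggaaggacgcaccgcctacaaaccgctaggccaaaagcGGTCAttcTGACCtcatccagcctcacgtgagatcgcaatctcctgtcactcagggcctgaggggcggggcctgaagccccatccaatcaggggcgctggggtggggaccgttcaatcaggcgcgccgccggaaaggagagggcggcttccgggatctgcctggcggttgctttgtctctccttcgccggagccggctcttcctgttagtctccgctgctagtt
The ZNF410 promoter, of a zinc-finger gene, had a summit pileup of 54 with Dox+E2 and 25 with Dox. At this start of GATA3, the luminal transcription factor gene, the pileups were 18 and 8, while another of its starts (region chr10:8044822-8045387) had 9 with Dox+E2 and 16 with Dox. The promoter of S100A16, a calcium-binding protein gene, had 16 with Dox+E2 and 37 with Dox. The ZNF669 window holds both arms of the element in capitals, 3 bases apart, and had 49 with Dox+E2 and 46 with Dox. In the library pair with WT receptor these promoters had 23 and 33 (ZNF410), 7 and 14 (GATA3), 21 and 37 (S100A16) and 46 and 43 (ZNF669) with Dox+E2 and with Dox. The unscaled pileups of ZNF410 and GATA3 were thus lower with Dox+E2 there. WT with Dox had the higher background, 0.361 against 0.253 with Dox+E2, and the part of depth in these WT pileups was not tested. Of all 34961 promoter windows on these chromosomes, 20 (0.0572%) held the full element on either strand and 13056 (37.3%) held at least 1 arm, overlapping matches included. An arm was present in 134 of 394 windows whose shared region was 2-fold or more higher with Dox+E2 (34.0%), in 54 of 150 that were 2-fold or more lower (36.0%), and in 4718 of 13878 within 2-fold (34.0%). The full element stood in 0 of the 394, 0 of the 150 and 6 of the 13878. Its letters stood in 1 of 609 windows with a Dox+E2-only region, that of LINC02350, and in 0 of 555 with a Dox-only region.

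Over the genome, the numbers of regions found with Dox+E2 only and with Dox only were nearly equal. A peak was present with Dox+E2 only in 23201 regions (23.3% of the 99640) and with Dox only in 23129 (23.2%), and 53310 were shared. Most of the regions seen in a single library were weak. Those with Dox+E2 only had a median pileup of 5 and a median width of 175 bp, those with Dox only 4 and 155 bp, and shared regions 9 with Dox+E2 and 8 with Dox over 457 bp. At a strongest pileup of 3 to 4 there were 8941 regions with Dox+E2 only and 12123 with Dox only. At 5 to 6 there were 10784 and 8614, at 7 to 9 there were 2996 and 2116, at 10 to 14 there were 459 and 268, and at 15 or more 21 and 8. The cut to equal length removed summits from the Dox+E2 list alone, those with the lowest −log10 p. With all peaks kept there were 26932 regions with Dox+E2 only and 21678 with Dox only, and with an overlap of 50% of the shorter interval 25861 and 25964, so the sign of the small difference depended on these choices. Among the 32414 strongest summits of each list, 416 regions were found with Dox+E2 only and 293 with Dox only; 45 of the 293 (15.4%) had a weaker Dox+E2 peak in the full list, and with all peaks kept the counts were 416 and 248.

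**Figure D1:**
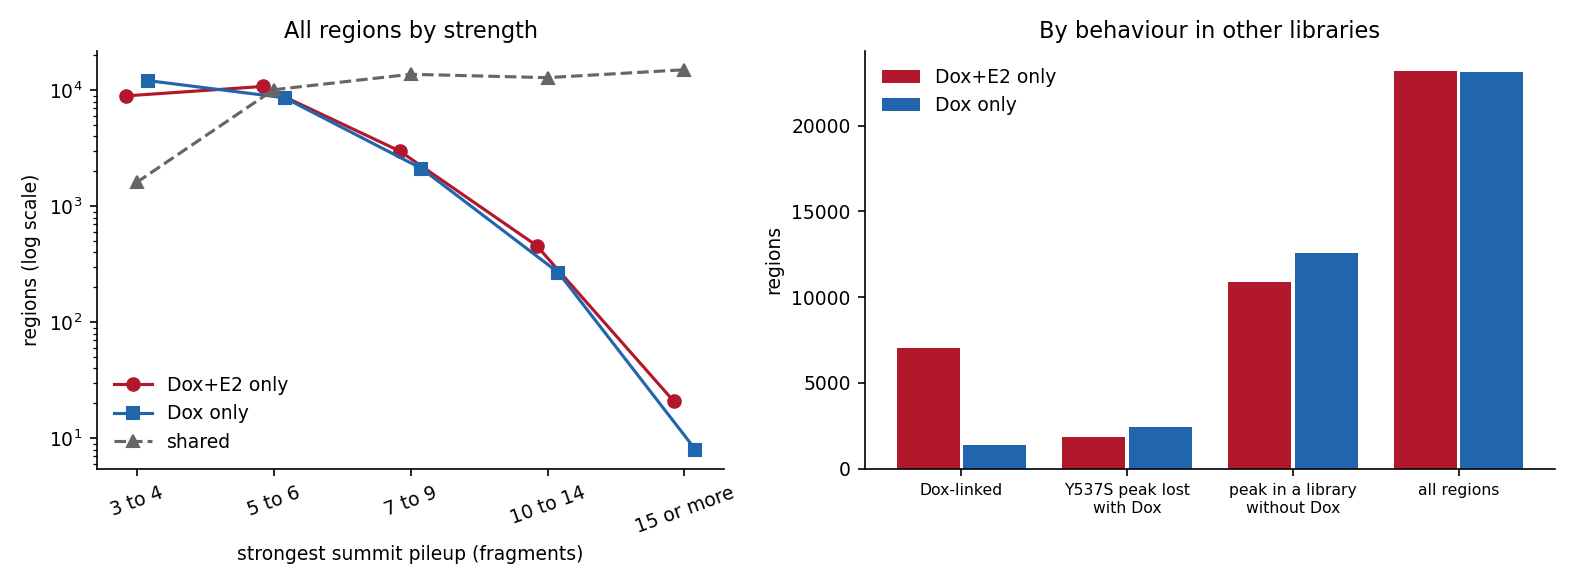
Left, number of regions (log axis) by strongest summit pileup for regions with Dox+E2 only, with Dox only and shared; right, number of regions with Dox+E2 only and with Dox only, by what the regions do in other libraries. The totals are near equal (23201 and 23129), whereas Dox-linked regions number 7031 and 1398.

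The balance did not hold for regions that had a peak in the Y537S line with Dox and in no library without it. Regions were called Dox-linked when none of the 6 libraries without Dox had a peak there and both Y537S libraries with Dox did. This rule was set after the data were seen and names neither of the 2 libraries compared. It was applied to regions with a peak in at least 1 of these 2, so sites with a peak in neither are left out. Of the 11554 Dox-linked regions, 7031 (60.9%) had a peak with Dox+E2 only, 1398 (12.1%) with Dox only and 3125 were shared. Dox+E2-only regions thus made up 83.4% of those in a single library (exact 95% interval 82.6 to 84.2%, counting error only), against 50.1% over all regions. The share was 92.4% where the Y537S Dox pileup was 20 or more (3012 against 247 regions) and 91.5% at 40 or more (474 against 44). Regions with a peak in both Y537S libraries without Dox and in neither with Dox showed the smaller number with Dox+E2 only, 1833, against 2448 with Dox only. Of regions with a peak in at least 1 library without Dox, 10866 and 12587 did. A Y537S peak can span several narrow K303R regions, but with regions merged over all 12 libraries the Dox-linked counts were 6009 and 1077. When both WT libraries with Dox took the place of the Y537S ones, they were 1919 and 480. Looked up in the full WT lists, 3007 of the 11554 regions had a peak with Dox+E2 only and 992 with Dox only.

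Shared Dox-linked regions were also higher with Dox+E2. The deposited fold enrichment is the summit pileup plus 1 over the background plus 1, and its log2 ratio, Dox+E2 over Dox, was centred on the median of all shared regions, 0.02. Over the 3125 shared Dox-linked regions the median centred log2 ratio was 0.26 (quartiles 0.00 and 0.58). It was 0.0786 with both lists cut to the 39522 strongest summits and 0.15 at a −log10 q of 5 or more. In 1927 of them the ratio was above 0 and in 729 below. At a Y537S Dox pileup of 40 or more the median was 0.58. In regions with a peak in all 12 libraries it was 0.07, and in regions with a peak in at least 1 library without Dox it was 0.00. Of the shared Dox-linked regions 350 (11.2%) were 2-fold or more higher and 34 (1.09%) 2-fold or more lower. Over all 53310 shared regions 2165 were higher (4.06%) and 1103 lower (2.07%). In the WT pair, centred on its own shared regions, the median was 0.48 over the 4370 Dox-linked regions with both WT peaks. Across all shared regions the median pileup over background was 46.9 with Dox+E2 and 38.2 with Dox; the part of this difference in the excess of higher ratios was not tested.

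**Figure D2:**
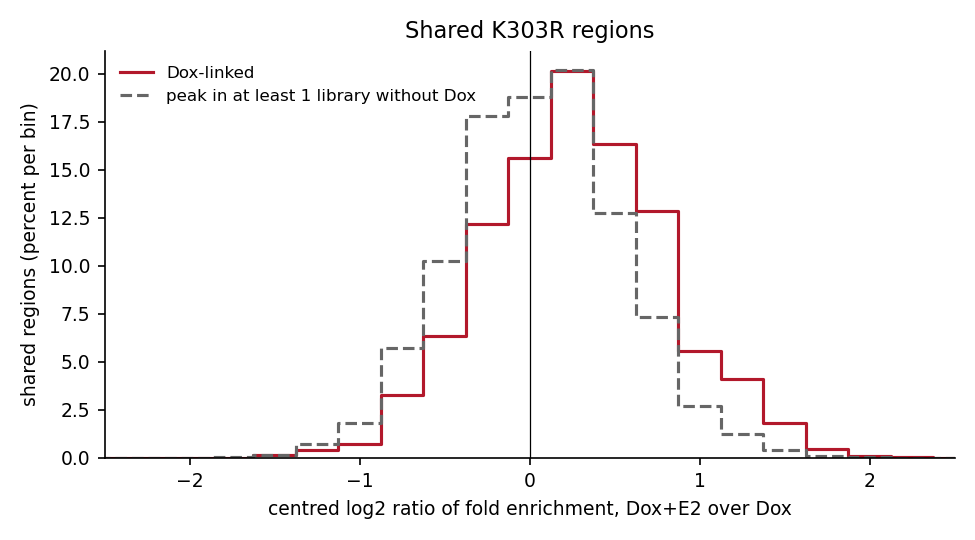
Distribution of the centred log2 ratio of fold enrichment, Dox+E2 over Dox, in shared K303R regions, as percent of regions per 0.25-wide bin. The Dox-linked regions (solid line) have a median of 0.26 (0.0786 with lists of 39522 summits), against 0.00 for regions with a peak in at least 1 library without Dox (dashed line).

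Single shifts mostly lay within counting error at these pileups. The centred log2 ratio had an SD of 0.50 over all shared regions, with a 5th percentile of −0.74 and a 95th of 0.87. Of the 2165 regions past 2-fold higher, 392 (18.1%) had an exact 95% interval of the pileup ratio entirely above 1. Of the 1103 lower ones, 176 (16.0%) had it entirely below 1. Both sets were selected on the same ratio, so no interval could lie on the opposite side. Over all shared regions the numbers were 509 above (0.955%) and 227 below (0.426%). Among shared Dox-linked regions they were 50 above and 0 below, which allows a share of up to 0.096%. Without any change, a 95% interval can miss 1 on each side in a larger share than 0.955% or 0.426%. The counts therefore establish no single shift. These intervals cover counting error only, since fragments of a PCR-amplified library are not independent molecules. If both reads of a fragment were counted, the intervals are too narrow. A ratio of exactly 2 is common because pileups are whole numbers. When such ratios are left out, 1343 regions were higher and 646 lower, and with centring on regions shared by all 12 libraries 1312 and 1146.

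Of the 10 strongest regions with Dox+E2 and with no Dox peak in the full list, 7 lay inside a protein-coding gene. The first lay inside ASAP1, a GTPase-activating protein gene (hg38, chr8:130348960-130349714), with a pileup of 22 with Dox+E2 and no peak with Dox. It had 24 in WT with Dox+E2, 7 in WT with Dox, and 115 and 86 in Y537S with Dox+E2 and with Dox, and no peak in any library without Dox. The region inside MAPKAPK2, a kinase gene downstream of p38 (chr1:206688814-206689266), had 20 with Dox+E2 and no peak with Dox. There the WT pileups were 20 and 7, and the Y537S pileups 57 and 61, with Dox+E2 and with Dox. Inside LLGL2, a cell polarity gene (chr17:75560020-75560519), the K303R pileup was 19 with Dox+E2 and absent with Dox, with 20 and 6 in WT and 63 and 76 in Y537S. At these 3 regions K303R and WT both had the higher pileup with Dox+E2. The Y537S pileups had no common direction, and their differences were not tested.

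Further regions of this kind lay inside MROH1 (chr8:144251432-144252055, pileup 20), 3.57 kb from ZDHHC19, a palmitoyltransferase gene (chr3:196193733-196194261, pileup 18), inside GABRG3, a GABA receptor subunit gene (chr15:27479542-27480171, pileup 16), and inside FBLN1, which encodes the matrix protein fibulin-1 (chr22:45556337-45556756, pileup 16). The region of FBLN1 had 16 in WT with Dox+E2 and no peak in WT with Dox. No protein-coding gene lay within 100 kb of chr6:125585544-125585826 (pileup 18) or chr1:208579436-208580113 (pileup 17). The remaining region, inside LIMS1, a focal adhesion adaptor gene (chr2:108583997-108584290, pileup 16), differed, with pileups of 6 to 23 in the libraries without Dox. Of these 10 regions, 9 had no peak in the 6 libraries without Dox, all 10 had a peak in Y537S with Dox (pileups 29 to 86, median 60), and 9 were higher in WT with Dox+E2 than in WT with Dox.

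The strongest regions with Dox only were more mixed. The first, 82.2 kb from the protocadherin gene PCDH18 (chr4:137614561-137614989), had no peak with Dox+E2 and a pileup of 17 with Dox, and pileups of 5 to 14 in 4 of the libraries without Dox. Inside SIAH2, a ubiquitin ligase gene (chr3:150751920-150752242), there was no peak with Dox+E2 and a pileup of 16 with Dox, and in WT no peak with Dox+E2 and 14 with Dox. Inside NEDD4L, another ubiquitin ligase gene (chr18:58269962-58270222), the pileup with Dox was 15, and Y537S had 16 with E2 and 20 untreated. Others lay inside ZNF462, CRAT, BCAR3 and MPP7, 71.6 kb from SPMIP3, and on chromosomes 4 and X away from genes, with pileups of 14 or 15. Of these 10 regions, 2 had no peak in the 6 libraries without Dox and 5 had a peak in Y537S with Dox. In WT, 1 was higher with Dox+E2 than with Dox and 7 were lower. WT pileups of named regions were compared without centring, and WT with Dox had the higher background (0.361, against 0.253 with Dox+E2). The part of depth in these WT counts, and in those of the shared regions below, was not tested.

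**Figure D3:**
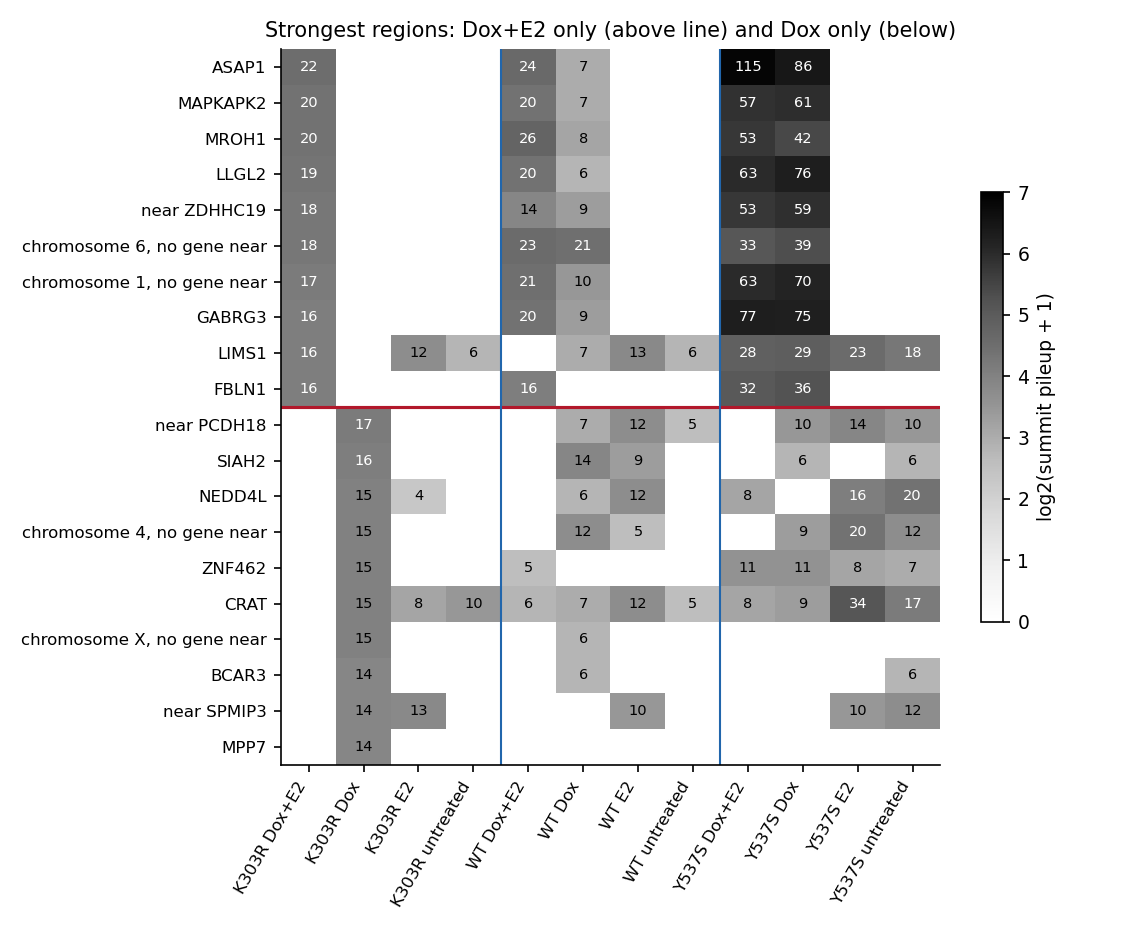
Summit pileup in all 12 libraries (columns, grouped by receptor form) of the 10 strongest K303R regions with Dox+E2 only (above the line) and of the 10 with Dox only (below it); shading is log2(pileup + 1), numbers are pileups and blank cells have no listed peak. In the upper block Y537S with Dox reaches 86 and 9 of 10 rows are blank without Dox, whereas 8 of 10 lower rows have a peak without Dox.

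Shared regions with the largest ratios of Dox+E2 over Dox included a similar set. Inside INF2, a formin gene (chr14:104692469-104693306), the pileup was 16 with Dox+E2 and 3 with Dox (exact 95% interval of the ratio 1.53 to 28.6). In WT it was 27 and 15, and in Y537S 79 and 78, with Dox+E2 and with Dox. Inside VPS13B, a membrane-trafficking gene (chr8:99347857-99348345), it was 22 with Dox+E2 and 5 with Dox (interval 1.63 to 14.9), with 23 and 11 in WT. The region chr8:88774680-88775396, far from any gene end, had 21 with Dox+E2 and 4 with Dox (interval 1.77 to 21.0), and 25 and 11 in WT. These 3 had no peak in any library without Dox.

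Other regions high with Dox+E2 were already listed without Dox. The largest ratio lay inside CHCHD2, a mitochondrial protein gene (chr7:56105581-56105851), with 18 with Dox+E2 and 3 with Dox (interval 1.75 to 31.8), and 7 and 13 in WT. Inside PLAUR, which encodes the urokinase receptor (chr19:43668104-43669193), the pileup was 29 with Dox+E2 and 7 with Dox (interval 1.78 to 11.2), against 10 and 17 in WT. MGRN1, ZNRF2, ZNF644, TLL2 and CUL4A completed the 10, with 14 to 23 with Dox+E2 and 3 to 5 with Dox. Of these 10 regions, 6 were higher in WT with Dox+E2 than with Dox and 3 were lower.

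The lowest ratios lay in regions that had a peak without Dox. These regions were picked by their ratio too, so their intervals also leave out 1 by selection. Inside ZBTB7C (chr18:48221997-48222650) the pileup was 4 with Dox+E2 and 20 with Dox (exact 95% interval of the ratio 0.05 to 0.60), and 6 and 17 in WT. Inside ITGA2, the integrin alpha 2 gene (chr5:52988522-52989896), it was 5 with Dox+E2 and 21 with Dox (interval 0.07 to 0.65), and 8 and 13 in WT. Near RMP64 (35.015 kb, chr3:113054541-113054917) it was 7 with Dox+E2 and 26 with Dox. SLC60A1, the transporter gene ABCG2, the chemokine gene CXCL13, the transcription factor gene NFIA, DRC3, GLCCI1 and a stretch of chromosome 6 completed the list. Each of the 10 had a peak in at least 1 library without Dox, and 8 were lower in WT with Dox+E2 than with Dox. These WT pileups were not centred, and some gaps were small, as at SLC60A1 (12 with Dox+E2 and 14 with Dox).

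Looked up in the other lines, the regions with Dox+E2 only and those with Dox only differed in where else they had peaks. In Y537S with Dox+E2, 56.2% and 31.7% of them had a peak, and in Y537S with Dox 57.0% and 32.0%. The order was the other way round without Dox, at 37.6% and 43.2% in Y537S with E2 and 33.2% and 37.4% untreated. In WT with Dox+E2 the shares were 27.4% (exact 95% interval 26.9 to 28.0%) and 11.0% (10.6 to 11.4%), whereas in WT with Dox they lay close together, at 25.1% and 23.3%. In K303R with E2 they were 12.3% and 13.2%, and in untreated K303R 3.68% and 3.61%. The Y537S lists are the longest of the series (up to 133963 summits) and the untreated K303R list the shortest (39522), so levels are not comparable between libraries, only the 2 kinds of region within a library. For the 416 and 293 among the strongest summits, WT with Dox+E2 had a peak in 69.5% and 28.7%, and Y537S with Dox in 91.8% and 57.7%.

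**Figure D4:**
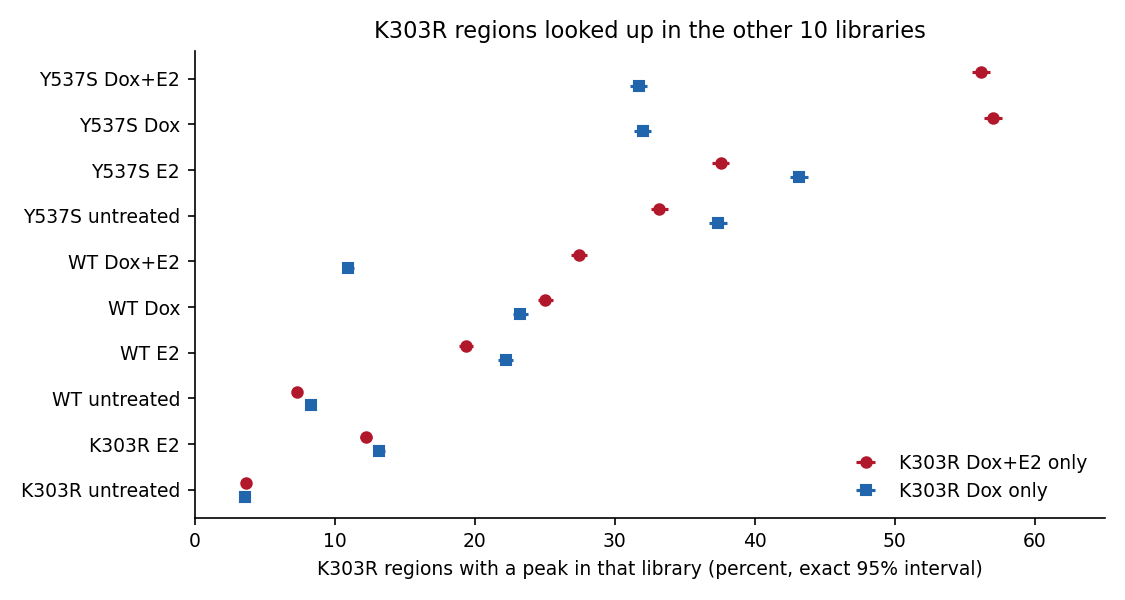
Share of K303R regions with Dox+E2 only (circles) and with Dox only (squares) that have a peak in each of the other 10 libraries; bars are exact 95% intervals over regions, from 1 library each. The largest gaps lie in Y537S and WT with Dox+E2 (56.2% and 31.7%, 27.4% and 11.0%) and in Y537S with Dox (57.0% and 32.0%).

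The same comparison in the other lines, treated in the same way, gave different balances. WT with Dox+E2 against WT with Dox had 16806 and 14598 regions in a single library, and 848 shared regions 2-fold or more higher against 1024 lower. Y537S had 20025 and 20334, with 1602 higher and 1370 lower. Without Dox, K303R with E2 had 8294 regions of its own against 10417 in untreated K303R, with 232 higher and 207 lower, though the untreated library had a higher background (0.442 against 0.211 with E2). In WT the regions with Dox+E2 only overlapped 18.4% of the K303R regions with Dox+E2 only (25.1% of the WT list) and 5.48% of those with Dox only (7.503% of the WT list). The WT regions with Dox only overlapped 6.12% and 8.47%. In Y537S the corresponding shares were 5.52% and 6.70% for regions with Dox+E2 only, and 6.57% and 7.31% for regions with Dox only. Where both WT libraries with Dox had a peak inside a K303R region with Dox+E2 only, 2352 of 2993 (78.6%) were higher in WT with Dox+E2, against 856 of 1510 (56.7%) inside K303R regions with Dox only. Over the regions shared in K303R it was 51.4%. In Y537S, where many ratios were tied, 5308 were higher and 5231 lower inside K303R regions with Dox+E2 only, and 2382 and 2403 inside those with Dox only. Across the 30842 regions shared in both lines, the K303R and WT shifts had a Pearson correlation of 0.14, given as a description only. With 1 library per line and treatment, the difference between lines could not be tested.

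Classical estrogen response genes did not as a group carry more regions with Dox+E2 only. Over all 18739 protein-coding genes with a region within 50 kb, 78.7% had a region with Dox+E2 only and 79.6% a region with Dox only. Of the 50 listed estrogen response genes, 43 (86.0%) had a region with Dox+E2 only and 48 (96.0%) a region with Dox only. More regions with Dox+E2 only than with Dox only were found at 14 of the 50 (28.0%), against 37.9% of all genes. The reverse was found at 29 (58.0%), against 39.6%. This was not particular to estrogen genes, since every other list below also exceeded 39.6%, from 43.5% (housekeeping among them) to 72% (cell cycle). Summed over the estrogen list there were 156 regions with Dox+E2 only and 191 with Dox only. Among the strongest summits it had 3 with Dox+E2 only and 3 with Dox only. Limited to Dox-linked regions, the list had 54 with Dox+E2 only and 21 with Dox only, and all genes together had 12713 and 2553, so regions with Dox only made up a larger part of them in the list than over all genes. At least 1 Dox-linked region lay at 41 genes of the list (82%), against 46.6% of all genes. Then 22 genes (44.0%) had more with Dox+E2 only, against 32.9% of all genes, and 6 (12%) had more with Dox only, against 5.02%. Other lists also exceeded the shares of all genes. A Dox-linked region lay at 56.5% of housekeeping genes, for example, though at 46.2% of basal and other cell type genes. More with Dox+E2 only were found at 43.5% of IGF and ERBB and of AP-1 genes and 39.1% of housekeeping genes. Luminal identity (28.6%) and basal and other cell type genes (23.1%) lay below 32.9%. The median difference per gene, Dox+E2 only minus Dox only, was −1 in the list and 0 over all genes. Neighbouring genes share part of their windows, and a region is then counted at each.

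Single estrogen genes varied. RET, a receptor tyrosine kinase gene, had 9 regions with Dox+E2 only, 2 with Dox only and 13 shared. Of these, 5, 0 and 3 were Dox-linked. The Dox-linked region 18.5 kb inside the gene (chr10:43111792-43112138) had a pileup of 7 with Dox+E2 and no peak with Dox, and in WT 7 and no peak. CA12, a carbonic anhydrase gene, had 5 with Dox+E2 only, 7 with Dox only and 13 shared, of which 4, 1 and 4 were Dox-linked. Its Dox-linked region inside the gene at chr15:63349308-63349559 had 11 with Dox+E2 and no peak with Dox, 16 and 7 in WT, and 48 and 46 in Y537S. The gene table gives spans without exons, so exonic and intronic positions are not distinguished here.

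GREB1, an ER target and coregulator gene, had 9 regions with Dox+E2 only, 5 with Dox only and 5 shared. Its Dox-linked regions were split, 2 with Dox+E2 only, 2 with Dox only and 2 shared. The region at chr2:11498560-11498960 had no peak with Dox+E2 and a pileup of 8 with Dox, while in WT it had 10 with Dox+E2 and no peak with Dox. At an end of TFF1, a secreted trefoil peptide gene (chr21:42366247-42366973), the pileup was 17 with Dox+E2 and 11 with Dox (exact 95% interval of the ratio 0.68 to 3.65), so the 2 were not distinguishable at this depth. In WT it was 21 and 13, and in Y537S 42 and 45. PGR, the progesterone receptor gene, had 10 with Dox+E2 and 10 with Dox at its start (chr11:101129542-101129949). ESR1, the ER gene itself, had 1 region with Dox+E2 only, 8 with Dox only and 8 shared. PDZK1 had 2, 5 and 2, IGFBP4 1, 2 and 4, CXCL12 0, 3 and 1, and the cyclin gene CCND1 3, 6 and 11. At ESR1 the 8 regions with Dox only had pileups of 3 to 5, close to the lowest listed pileup, and the region with Dox+E2 only had 4. The ESR1 region with Dox only at chr6:151668896-151669109 had a Dox+E2 pileup of 3 among the summits that were cut.

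**Figure D5:**
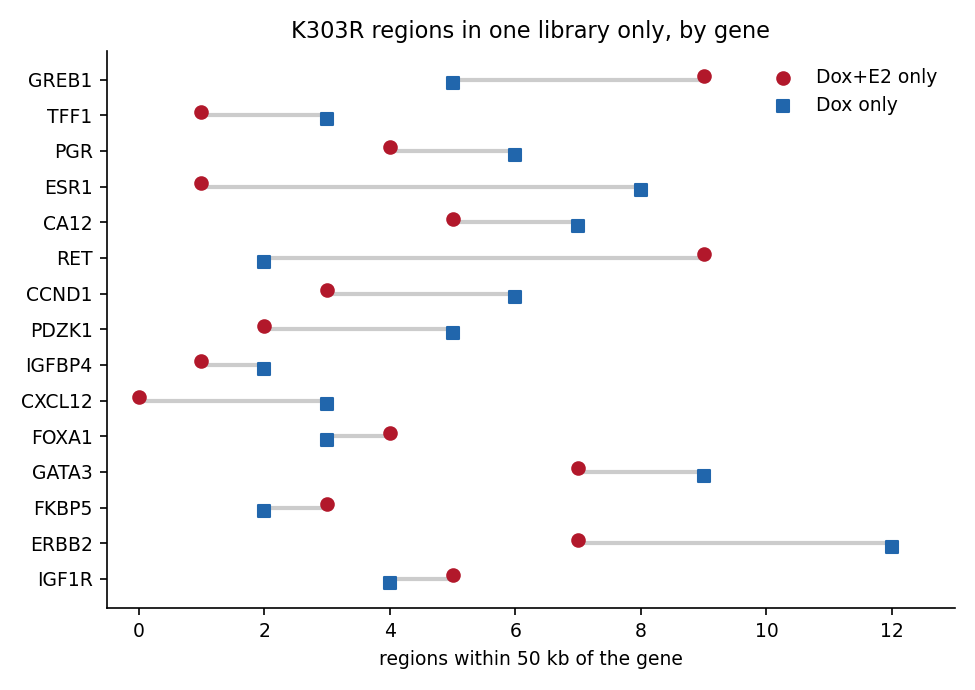
Number of K303R regions with Dox+E2 only (circles) and with Dox only (squares) within 50 kb of each of 15 genes. RET and GREB1 have more with Dox+E2 only (9 and 2, 9 and 5), whereas ESR1 and ERBB2 have fewer (1 and 8, 7 and 12). The 8 ESR1 regions with Dox only have pileups of 3 to 5, and the 1 with Dox+E2 only has 4.

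Pioneer, luminal and signalling genes also went both ways. FOXA1, the pioneer factor gene, had 4 regions with Dox+E2 only, 3 with Dox only and 15 shared. GATA3 had 7, 9 and 11, and its region at chr10:8054249-8054945 is the one whose promoter window is printed above, with 18 and 8 (interval 0.93 to 5.98). FKBP5, a steroid hormone response gene, had 3, 2 and 9. ERBB2, the HER2 receptor gene, had 7, 12 and 18, and IGF1R, the IGF-1 receptor gene, 5, 4 and 19. EGFR, the EGF receptor gene, had 7 regions with Dox+E2 only, 0 with Dox only and 1 shared, and 6 of the 7 were Dox-linked.

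The other gene lists, chosen for this tissue and treatment, stood as follows. More regions with Dox+E2 only were found at 9 of 25 receptor and coregulator genes, 11 of 23 IGF and ERBB signalling genes, 7 of 21 luminal identity genes, 9 of 24 androgen response genes, 6 of 23 AP-1 and immediate early genes, 6 of 25 cell cycle genes, 7 of 20 interferon genes, 5 of 23 housekeeping genes and 4 of 13 basal and other cell type genes. More regions with Dox only were found at 13, 10, 12, 12, 16, 18, 9, 10 and 6 of them in the same order. Over all genes the shares were 37.9% with more Dox+E2 only and 39.6% with more Dox only. In the lists they ranged between 21.7% (housekeeping) and 47.8% (IGF and ERBB) for more Dox+E2 only, and between 43.5% (IGF and ERBB, and housekeeping) and 72% (cell cycle) for more Dox only. The median difference per gene was −1 in the receptor, luminal, AP-1 and cell cycle lists, −0.5 in the androgen list and 0 in the others. Cell cycle genes had 61 regions with Dox+E2 only and 90 with Dox only, and AP-1 genes 71 and 86. By the rule of up to 4 genes per list, the largest differences were at TFAP2A (1 and 6), ESR2 (1 and 5), GRB7 (2 and 8), IGFBP5 (8 and 4), KRT7 (10 and 3), CLDN3 (2 and 6), ELF3 (2 and 6), FASN, the fatty acid synthase gene (9 and 2), ACSL3 (2 and 7), NDRG1 (3 and 6), JUND (11 and 7), FOS (3 and 8), NR4A1 (3 and 6), CCN1 (3 and 1), E2F2 (1 and 7), CCND3 (4 and 8), E2F1 (3 and 6) and ASB13 (5 and 0), with Dox+E2 only first. Among interferon, housekeeping and other cell type genes they were at ISG15 (8 and 1), IFIT3 (0 and 3), BST2 (2 and 4), IFI6 (3 and 1), SNRPD3 (2 and 8), TUBB (3 and 8), ACTB (6 and 3), CHMP2A (5 and 2), ACTA2 (1 and 4), CD3E (3 and 1) and COL1A1 (2 and 4). At FASN 6 of the 9 and at ISG15 4 of the 8 were Dox-linked, with 0 Dox-linked regions with Dox only at each.

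Over all genes, the largest excess of regions with Dox+E2 only was at SHANK2, a synaptic scaffold gene on chromosome 11, with 30 against 16 with Dox only and 28 shared. It was followed by CDH23, a cadherin gene (15 against 2), KSR1, a scaffold gene of the MAP kinase cascade (15 against 3), LDLRAD4 (13 against 1) and ZMIZ1, a transcriptional coregulator gene (18 against 6). At these 5 genes 14, 10, 9, 5 and 12 of the regions with Dox+E2 only were Dox-linked. The largest excess of regions with Dox only lay at neighbouring genes of chromosome 19 that share windows, ERF and GSK3A (1 against 15 each), DEDD2 and ZNF526 (0 against 13 each) and CIC (2 against 14), where no Dox-linked region lay. C1orf21 (1 against 13), CAPN2 (2 against 14), the neighbours NT5C (5 against 17) and ARMC7 (6 against 17), and ZNF254 (1 against 13) followed. These counts are not adjusted for gene length or for the number of regions.

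Regions in a single library were mostly away from gene ends. The summit lay within 1 kb of an end of a protein-coding gene in 9.37% of regions with Dox+E2 only (exact 95% interval 9.002 to 9.76%), in 11.6% of those with Dox only (11.2 to 12.01%) and in 23.7% of shared ones. With both lists cut to the 39522 strongest summits the order of the first 2 turned round, at 17.5% and 16.1%. The intervals treat regions as independent and leave out variation between libraries. Shared regions 2-fold or more higher lay near a gene end in 18.9% and those 2-fold or more lower in 15.4%. At promoters the shift of shared regions went with base composition: the median centred log2 ratio was 0.00 at windows of at most 50% G and C (909 regions), 0.08 at 50 to 60% (2486), 0.09 at 60 to 70% (4468) and 0.12 above 70% (3678). Its part in the promoter results was not tested. Between chromosomes, the number of regions with Dox+E2 only over the number with Dox only ranged between 0.87 on chromosome 19 (714 and 822) and 1.22 on chromosome 22 (643 and 527).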

How the data were processed

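Accessible chromatin was measured by ATAC-seq with 75 bp paired ends, per the labels' protocols. FastQC, Bowtie2, SAMtools, Picard and MACS2 and the build hg38 are named in the submitters' processing notes; no source used here gives versions or settings, or says whether reads were shifted to the cut site. The authors deposited 1 peak list per library, called with MACS2 per the submitters' processing notes and made up, as the values show, of a score (10 times the −log10 q, without decimals), a fold enrichment (the ratio of summit pileup plus 1 to background plus 1) and the −log10 p and −log10 q of the summit. The deposited values of a peak were used to describe, rank and filter peaks. All fold enrichments of a library were whole multiples of 1 step, so pileups and the background were recovered (whole to within 0.00071). Read totals are not used here; the background stands for depth.

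Both K303R lists were cut to 97243 summits by −log10 p, with ties at the cut in a fixed pseudo-random order. The highest fold enrichment per library and region was compared. Regions were looked up in other libraries by overlap of at least 1 bp. Genes came from RefSeq (GRCh38.p14, spans without strand), so distances to gene starts, as planned, became distances to either gene end; all 238 list genes were matched, 1 through an older symbol. The named regions are the 10 strongest in each direction without any peak of the other library, and the 10 largest and 10 smallest shared ratios with a fold enrichment of at least 10. The named genes are 16 fixed ones, the 5 gene groups with the largest excess each way, and up to 4 per list; some genes and markers so selected are not reported here. The members and lists were chosen with earlier results of these data known. Counting was tested on simulated data. Python 3.11.15, pandas 2.3.3, numpy 2.4.6 and scipy 1.17.1 were used.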

Additional observations from a re-analysis of the deposited data

Results flagged for a closer look

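The balance between both directions differed in sign between K303R and some of the other pairs, and these differences were not tested. Regions with Dox+E2 only outnumbered those with Dox only by 72 in K303R, whereas the difference was -309 in Y537S, and -2123 for K303R with E2 against untreated K303R. WT had the same sign as K303R, with 16806 regions with Dox+E2 only and 14598 with Dox only. The K303R value depends on the processing: with an overlap of 50% of the shorter interval there were 25861 regions with Dox+E2 only and 25964 with Dox only, so its sign turned, and with all peaks 26932 and 21678. Shared regions 2-fold or more higher outnumbered lower ones by 1062 in K303R, against a difference of -176 in WT. Y537S had the K303R sign here, with 1602 higher and 1370 lower, as did K303R with E2 against untreated, with 232 and 207. The size of this K303R excess depends on the processing as well. There were 1312 higher and 1146 lower when centred on regions in all 12 libraries, and 139 and 124 with the shortest list as the length. Among the strongest summits the excess of regions with Dox+E2 only was 123 in K303R, against -12 in Y537S and -61 for K303R with E2 against untreated. WT again had the K303R sign, with 898 regions with Dox+E2 only and 568 with Dox only.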

How the results depend on the processing

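Of the recomputed values, 40 stayed within 1.5 times the reported count or within its spread and 29 moved further. The excess of Dox+E2-only over Dox-only among Dox-linked regions kept its direction in all alternatives run for it. With the shortest list of the series as the length, the regions with Dox+E2 only and with Dox only numbered 6705 and 6327, the shared ones past 2-fold 139 higher and 124 lower, the shares near gene ends were 17.5% and 16.1%, 26 estrogen response genes had a region with Dox+E2 only, and Dox-linked regions numbered 946 and 259, with a median log2 ratio of 0.0786. At a −log10 q of 5 or more, without equal length, these were 14028 and 10237, 700 and 429, and 3645 and 589 Dox-linked, with a median of 0.15. Shared regions past 2-fold numbered 1312 higher when centred on regions in all 12 libraries, 646 lower with no centring, 1326 and 627 at a fold enrichment of 10 or more, 3480 and 1910 with pileup over background, and 1343 and 646 without ratios of exactly 2. Within 2500 bp of a gene end lay 17.2% and 20.8%. Dox-linked regions by the WT libraries numbered 1919 and 480. At a pileup of 10 or more, in place of the strongest summits, 480 and 276 regions were found. No paired analysis was possible because each group has 1 library. The Dox-linked set, the strongest summits and the count without exact ratios were chosen after seeing the data. Low pileups limit single regions, since most 2-fold ratios lay within counting error.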
